A study of Mus musculus with 16 samples.

Results

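The genes described here are 48 mouse genes of the cell cycle and of DNA replication, measured by mRNA sequencing in inguinal white adipose tissue, the fat pad under the skin of the groin. They were chosen by symbol from a list of known cell cycle genes, and all 48 were among the 16091 genes of the deposited table. By role, 7 are G1 cyclins and regulators of the G1-S transition, 16 act in S phase and DNA replication, and 25 act in G2 and mitosis. The 16 libraries form 4 groups of 4: high-fat diet with an antibody against PDGFcc, high-fat diet without antibody, control diet with the antibody, and control diet without it. All mice were of the strain C57BL6/J, and no transgene or mutation is named in the labels. An age of 6 weeks is given for all 16 libraries, treated and untreated. The antibody, a product numbered AF1447, was injected into the peritoneum of mice 6 weeks old at 50 mg/kg in a volume of 100 µl, and injections were repeated each 2 days over 2 weeks. No control injection of the untreated mice and no length of the diets is named in the labels. PDGF-CC is a secreted ligand of the receptor PDGFRA, which adipocyte progenitors carry.

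A dividing cell passes through G1, S, G2 and mitosis. D-type and E-type cyclins with their kinases release E2F transcription factors in G1, and E2F then switches on the genes for replication: the MCM helicase, its loading factors, and the enzymes that make deoxynucleotides. Later, the transcription factor FOXM1 and the MuvB complex raise the genes of G2 and mitosis through promoter elements called the CHR and the CCAAT box, and the kinase CDK1 with cyclins A and B drives entry into mitosis. Mature adipocytes are non-dividing cells. In fat tissue, division is known in progenitors, in macrophages and other immune cells, and in endothelial cells. In bulk tissue, fewer cells of a type and less RNA per cell cannot be told apart, and this holds for every value below.

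Promoter stretches of 3 G2 and mitosis genes and 2 S phase genes are printed first, because they hold the elements whose shares are counted next. Each runs from 120 bases before the annotated start to the first 20 bases of the transcript, 5′ to 3′ on the strand of the gene, from RefSeq (GRCm38.p6). Capitals mark the CHR (TTTGAA or TTCGAA), the CCAAT box (CCAAT, or ATTGG on the other strand) and the E2F core on either strand, in its forms TTCCCGC and also TTGGCGC and also TTCGCGC and also TTGCCGC.
Cdk1: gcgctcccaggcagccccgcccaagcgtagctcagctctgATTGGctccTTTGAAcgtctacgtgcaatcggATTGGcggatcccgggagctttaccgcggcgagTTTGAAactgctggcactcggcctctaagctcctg
Bub1: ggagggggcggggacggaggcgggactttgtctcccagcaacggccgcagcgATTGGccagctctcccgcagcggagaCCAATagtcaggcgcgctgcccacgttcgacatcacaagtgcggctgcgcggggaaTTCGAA
Kif23: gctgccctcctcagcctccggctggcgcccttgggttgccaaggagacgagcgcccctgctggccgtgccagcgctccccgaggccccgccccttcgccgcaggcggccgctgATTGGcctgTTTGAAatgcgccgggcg
Mcm6: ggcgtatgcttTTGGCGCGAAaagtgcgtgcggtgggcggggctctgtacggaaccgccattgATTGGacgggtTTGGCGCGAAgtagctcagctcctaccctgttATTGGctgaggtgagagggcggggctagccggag
Rrm2: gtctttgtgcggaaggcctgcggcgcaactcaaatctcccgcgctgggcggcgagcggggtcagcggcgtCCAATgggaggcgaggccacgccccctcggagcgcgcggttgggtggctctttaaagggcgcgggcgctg
The Cdk1 stretch lies at chr10:69352893-69353032, that of Bub1 at chr2:127831840-127831979, that of Kif23 at chr9:61946780-61946919, that of Mcm6 at chr1:128359686-128359825 (all on the minus strand) and that of Rrm2 at chr12:24708134-24708273 on the plus strand. Cdk1 and Kif23 hold TTTGAA and Bub1 holds TTCGAA, each with a CCAAT box. In Mcm6 overlapping E2F cores read in both directions form the longest capitals, and Rrm2 shows 1 CCAAT box within its printed stretch.

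Over the whole window from 250 bases before to 50 after the start, 37 of the 48 genes had an entry, and only these are counted. The CHR stood in 15 of 19 G2 and mitosis promoters (78.9%), in 3 of 14 S phase promoters (21.4%) and in 0 of 4 G1 promoters, against 13.9% of the promoters of 10736 genes tested in these libraries and 19.4% of all 27025 in the table. The CCAAT box stood in 17 mitosis promoters (89.5%) and 10 S phase promoters (71.4%), against 38.7% of tested genes. Both elements stood together in 15 mitosis promoters (78.9%), against 5.96% of tested genes. The E2F core had the opposite split, found in 3 of 19 mitosis promoters (15.8%) and 9 of 14 S phase promoters (64.3%), against 16.5% of tested genes. The Sp1 box (GGGCGG, either strand), a common element of promoters rich in G and C, was found in 84.2% of mitosis, 78.6% of S phase and 63.1% of tested promoters. With the shorter window from 100 bases before the start, the CHR remained in 15 of 19 mitosis promoters, against 5.15% of tested genes, and the E2F core was in 6 of 14 S phase promoters, against 9.51%. In Mcm6 forms of the E2F core overlap each other, and in Ccnb1 an E2F core overlaps a CCAAT box. These are letter matches, not sites shown to be bound. The entries missing are Mcm4, Ccna2, Kif20a, Ccnd1, Ccne2, Aurkb, Tpx2, Cdc25c, Foxm1, Ccnd2 and Gins2.

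Values are the authors' normalized counts per gene and are not divided by gene length, so levels are compared between libraries and not between genes. The normalized counts of a library summed to 24.02 to 28.15 (in 1e6). All 12 adipocyte markers were present, with a summed level of 940800 to 1239000 normalized counts per library. Libraries varied in skeletal muscle RNA: the summed level of 10 muscle genes was 1179 to 9948 in high-fat libraries with antibody, 7195 to 541200 in untreated high-fat libraries, 31510 to 183300 in control-diet libraries with antibody and 1348 to 33260 in untreated control-diet libraries. Of the 48 genes, 47 passed the filter on low values (more than 24.49 normalized counts in at least 4 libraries). Cdc25c, a phosphatase that activates CDK1, passed in 0 libraries. Bub1 and Ccnb1 passed only through the high-fat libraries, so a difference was in part required for them to be tested.

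Without antibody, genes of G2 and mitosis were higher on the high-fat diet. Of 24 tested, 11 rose, 0 fell and 13 did not pass the test, and 23 of 24 had a positive log2 difference, against 53.1% of all genes tested. Of the 16 S phase genes 2 rose and 14 did not pass, and of the 7 G1 genes 1 rose and 6 did not pass. In all, 14 of 47 genes rose at an adjusted p under 0.05 (limma), against 2.98% of 14189 genes tested that rose (8.15% in either direction). The median log2 difference was 0.72 for mitosis genes, 0.37 for S phase genes and 0.06 for G1 genes, against 0.02 for all genes tested. Of the 11 mitosis genes, 2 (Bub1 and Ccnb1) had passed the filter on low values only through the high-fat libraries.

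All 14 calls were lost when only the compared groups were fitted. They were also lost with replicate number as a block, where 0% of all genes tested were called. The same held when 1 of 4 libraries was left out (untreated control-diet replicate 3 or 4, or untreated high-fat replicate 3 or 4). The count was 1 without untreated control-diet replicate 2, 2 without untreated high-fat replicate 2 and 24 without untreated control-diet replicate 1. Calls over all genes tested moved likewise: 8.15% of genes were called in full, 0% when only the compared groups were fitted, 0.655% and 0% without control-diet replicates 3 and 4, 0.578% and 0% without high-fat replicates 3 and 4, and 29.0% without control-diet replicate 1. With single libraries left out, the median lay between 0.65 and 0.83 for mitosis genes, 0.20 and 0.45 for S phase genes, and 0.01 and 0.13 for G1 genes. The S phase median was lowest without untreated control-diet replicate 3, and the G1 median was lowest without replicate 1 and highest without replicate 3 of that group.

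**Figure D1:**
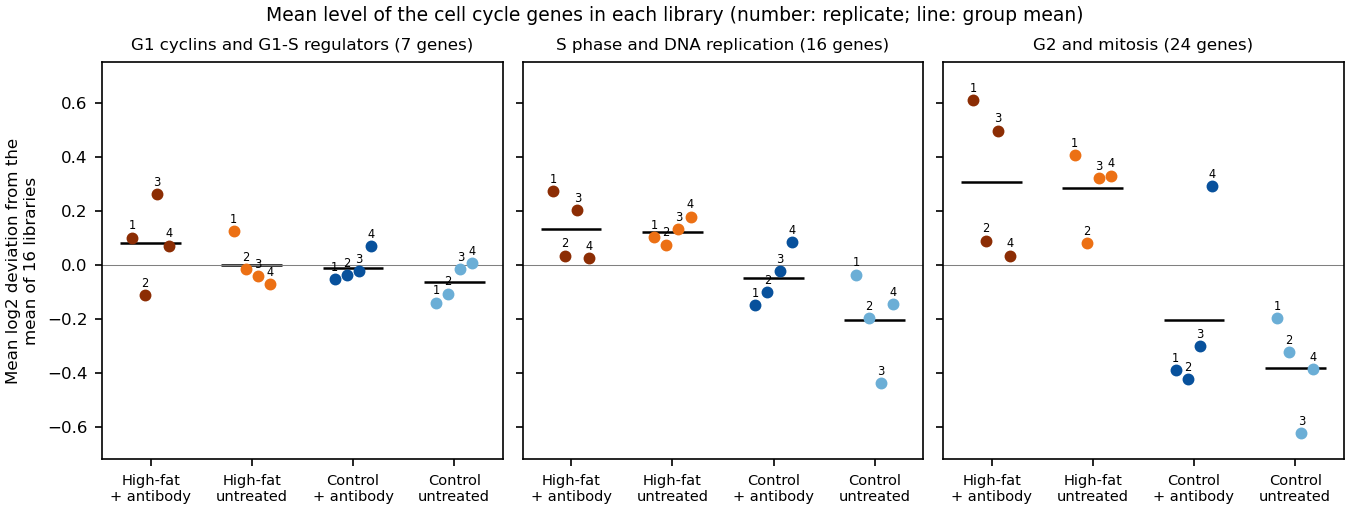
Mean log2 deviation of each gene from its mean over 16 libraries, averaged over the tested genes of each role (y axis), for each library (points, numbered by replicate) and group (black line: group mean). For G2 and mitosis the 4 untreated high-fat libraries lie between 0.08 and 0.41 and the 4 untreated control-diet libraries between -0.62 and -0.20; control-diet replicate 4 with antibody, at 0.29, lies with the high-fat libraries.

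Per library, the mean deviation of the mitosis genes was 0.61, 0.09, 0.50 and 0.03 on the log2 scale in high-fat replicates 1 to 4 with antibody. In the untreated high-fat group replicates 1 to 4 were at 0.41, 0.08, 0.32 and 0.33. The deviation was -0.39, -0.43, -0.30 and 0.29 in control-diet replicates 1 to 4 with antibody, and -0.20, -0.32, -0.62 and -0.39 in untreated control-diet replicates 1 to 4. All 8 high-fat libraries were above 0, and all control-diet libraries but 1 were below it. The exception, control-diet replicate 4 with antibody, lay above 3 of the high-fat libraries. For S phase genes the deviations ran from 0.02 to 0.27 in high-fat libraries with antibody, 0.07 to 0.18 in untreated high-fat libraries, -0.15 to 0.08 in control-diet libraries with antibody and -0.44 to -0.04 in untreated control-diet libraries. The lowest library for both roles was untreated control-diet replicate 3.

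The proliferation antigen Mki67 (ENSMUSG00000031004, GRCm38 chromosome 7, 135689784 to 135716361), a coat protein of mitotic chromosomes, had 395.6, 264.5, 361.5 and 333.5 normalized counts in untreated high-fat replicates 1 to 4, against 209.0, 199.5, 163.2 and 210.7 in untreated control-diet replicates 1 to 4. Every high-fat library lay above every control-diet library. With antibody it had 405.9, 263.3, 374.8 and 294.4 on the high-fat diet, against 194.1, 173.7, 177.1 and 295.5 on the control diet, where replicate 4 reached the high-fat range. The log2 difference between diets was 0.78 ± 0.18 without antibody (SE, n = 4 each; adjusted p = 0.0303, limma) and 0.68 ± 0.18 with it (adjusted p = 0.0976, limma). Averages without antibody were 339 ± 55.7 on the high-fat diet and 196 ± 22.2 on the control diet (SD, n = 4 each).

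Foxm1 (ENSMUSG00000001517, chromosome 6, 128362967 to 128376146), the transcription factor of the G2 and mitosis program, had 110.8, 76.72, 84.22 and 103.2 normalized counts in untreated high-fat libraries, against 63.72, 58.72, 42.43 and 55.4 in untreated control-diet libraries. With antibody it had 96.33, 80.26, 98.3 and 77.19 on the high-fat diet, against 57.61, 51.4, 48.2 and 80.51 on the control diet. The diets did not overlap without antibody, and with antibody only control-diet replicate 4 entered the high-fat range. The log2 difference was 0.76 ± 0.18 without antibody (adjusted p = 0.0334, limma) and 0.58 ± 0.18 with it (adjusted p = 0.139, limma).

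Of the cyclins that partner CDK1, Ccna2 rose on the high-fat diet and Ccnb2 did not pass; Ccnb1 had passed the filter only through the high-fat libraries. Ccna2, cyclin A2 (ENSMUSG00000027715, chromosome 3, 36564865 to 36572150), had 149.1, 91.83, 143 and 153.8 normalized counts in untreated high-fat libraries, against 90.34, 83.13, 58.43 and 71.23 in untreated control-diet libraries. It had 155.8, 114.5, 148.4 and 110.4 in high-fat libraries with antibody, against 59.85, 77.05, 61.33 and 108.4 in control-diet libraries with antibody. Ccna2 was the only gene of the 24 whose diets did not overlap in either antibody state, although untreated high-fat replicate 2 lay close to the highest control-diet library. Its log2 difference was 0.81 ± 0.22 without antibody (adjusted p = 0.041, limma) and 0.80 ± 0.22 with it (adjusted p = 0.0985, limma). Ccna2 shares exon sequence with Exosc9 on the opposite strand, and whether reads were counted by strand is not given in the sources used here. Ccnb1, cyclin B1, differed by 0.85 ± 0.24 (adjusted p = 0.044, limma), with 40.8 ± 11.6 normalized counts on the high-fat diet and 21.8 ± 3.32 on the control diet (SD, n = 4 each). Ccnb2, cyclin B2, averaged 60.8 ± 13.0 and 39.4 ± 12.2 on these diets and did not pass (0.64 ± 0.27, adjusted p = 0.124, limma).

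Cdk1 itself (ENSMUSG00000019942, chromosome 10, 69335146 to 69352938), the kinase that starts mitosis, had 127.4, 90.92, 130.3 and 122.8 normalized counts in untreated high-fat libraries, against 85.54, 84.01, 57.06 and 87.07 in untreated control-diet libraries. Among antibody libraries it had 190.1, 105.7, 129.1 and 131.4 on the high-fat diet, against 88.6, 92.49, 112.4 and 113.7 on the control diet. Untreated high-fat libraries were all above untreated control-diet libraries, but the log2 difference of 0.59 ± 0.19 did not pass (adjusted p = 0.0614, limma). With antibody the diets overlapped and the difference was 0.42 ± 0.19 (adjusted p = 0.253, limma).

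**Figure D2:**
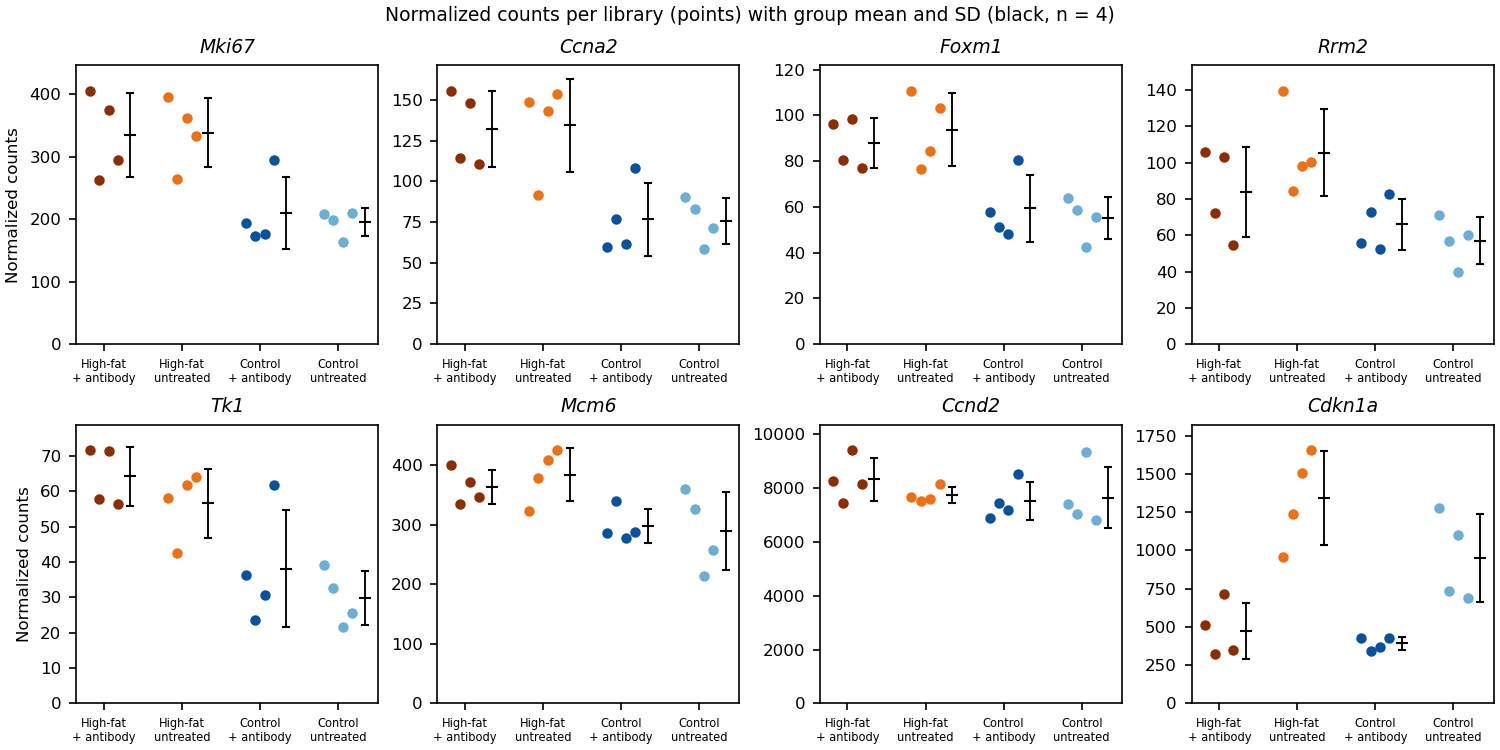
Normalized counts (y axis, from 0) of 8 genes in each library (points), by group, with group mean and SD (black, n = 4). Mki67, Ccna2, Foxm1, Rrm2 and Tk1 lie higher in untreated high-fat than in untreated control-diet libraries, Ccnd2 overlaps in all groups, and Cdkn1a is lower with antibody on both diets.

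Among genes of the spindle and of cell division, Kif23, a kinesin of the central spindle, had 126.4, 118.5, 135.2 and 162 normalized counts in untreated high-fat libraries, against 85.56, 88.61, 58.45 and 72.22 in untreated control-diet libraries. In antibody libraries Kif23 had 132.4, 117.5, 155.2 and 92.78 on the high-fat diet, against 82.19, 74.02, 90.67 and 124.9 on the control diet. The untreated diets were apart, and with antibody only control-diet replicate 4 entered the high-fat range. The log2 difference of Kif23 was 0.83 ± 0.19 without antibody (adjusted p = 0.0301, limma) and 0.42 ± 0.19 with it (adjusted p = 0.263, limma). Kif20a, a kinesin needed for cytokinesis, had 110.8, 95.71, 124.4 and 108.4 in untreated high-fat libraries, against 72.25, 68.66, 63.69 and 53.41 in untreated control-diet libraries. Kif20a differed by 0.76 ± 0.20 without antibody (adjusted p = 0.041, limma) and by 0.78 ± 0.20 with it (adjusted p = 0.0934, limma). Kif20a shares exon sequence with Cdc23 on the opposite strand.

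Bub1 (ENSMUSG00000027379, chromosome 2, 127801122 to 127831865), a kinase of the spindle checkpoint, had 20.76, 29.44, 31.37 and 22.74 normalized counts in untreated high-fat libraries, against 8.504, 8.949, 12.51 and 14.85 in untreated control-diet libraries. Bub1 with antibody had 32.15, 17.6, 27.02 and 12.91 on the high-fat diet, against 16.01, 11.34, 19.58 and 18.58 on the control diet. Its untreated difference was 1.16 ± 0.30 (adjusted p = 0.0371, limma), for a gene above the floor of the filter in 4 high-fat and 0 control-diet libraries, and with antibody the diets overlapped (0.38 ± 0.30, adjusted p = 0.524, limma). Top2a, the topoisomerase that untangles chromosomes, had 313.8, 209.4, 311.5 and 286 in untreated high-fat libraries, against 190.1, 186, 142.6 and 181.1 in untreated control-diet libraries. These groups did not overlap, but the log2 difference of 0.67 ± 0.20 had an adjusted p of 0.051 (limma). The other mitosis genes that rose were Cenpe, a kinetochore motor (0.96), Plk1, a mitotic kinase (0.88), Aurkb, the kinase of the chromosomal passenger complex (0.80), and Tpx2, a spindle assembly factor (0.80), with adjusted p-values between 0.0486 and 0.0495 (limma). At the other end Aurka, a kinase of the spindle poles, differed by -0.06 and Kif11, a spindle motor, by 0.32. Ube2c, an enzyme that marks cyclins for destruction, differed by 0.33. Ube2c shares exon sequence with Tnnc2 on the opposite strand, and whether reads of Tnnc2 entered its counts was not tested. Cdc25c, outside the test, had 14.44, 10.45, 6.837 and 6.232 in untreated high-fat libraries, against 1.866, 5.505, 1.928 and 3.959 in untreated control-diet libraries.

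In all, the untreated diets did not overlap for 17 of 24 mitosis genes, 4 of 16 S phase genes and 1 of 7 G1 genes with high-fat higher, against 4.54% of all genes tested. Among the 17 were Bub1 and Ccnb1, which had passed the filter on low values only through the high-fat libraries. Ccnd3 was the only gene of the 47 with the high-fat libraries all lower, against 5.19% of all genes.

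**Figure D3:**
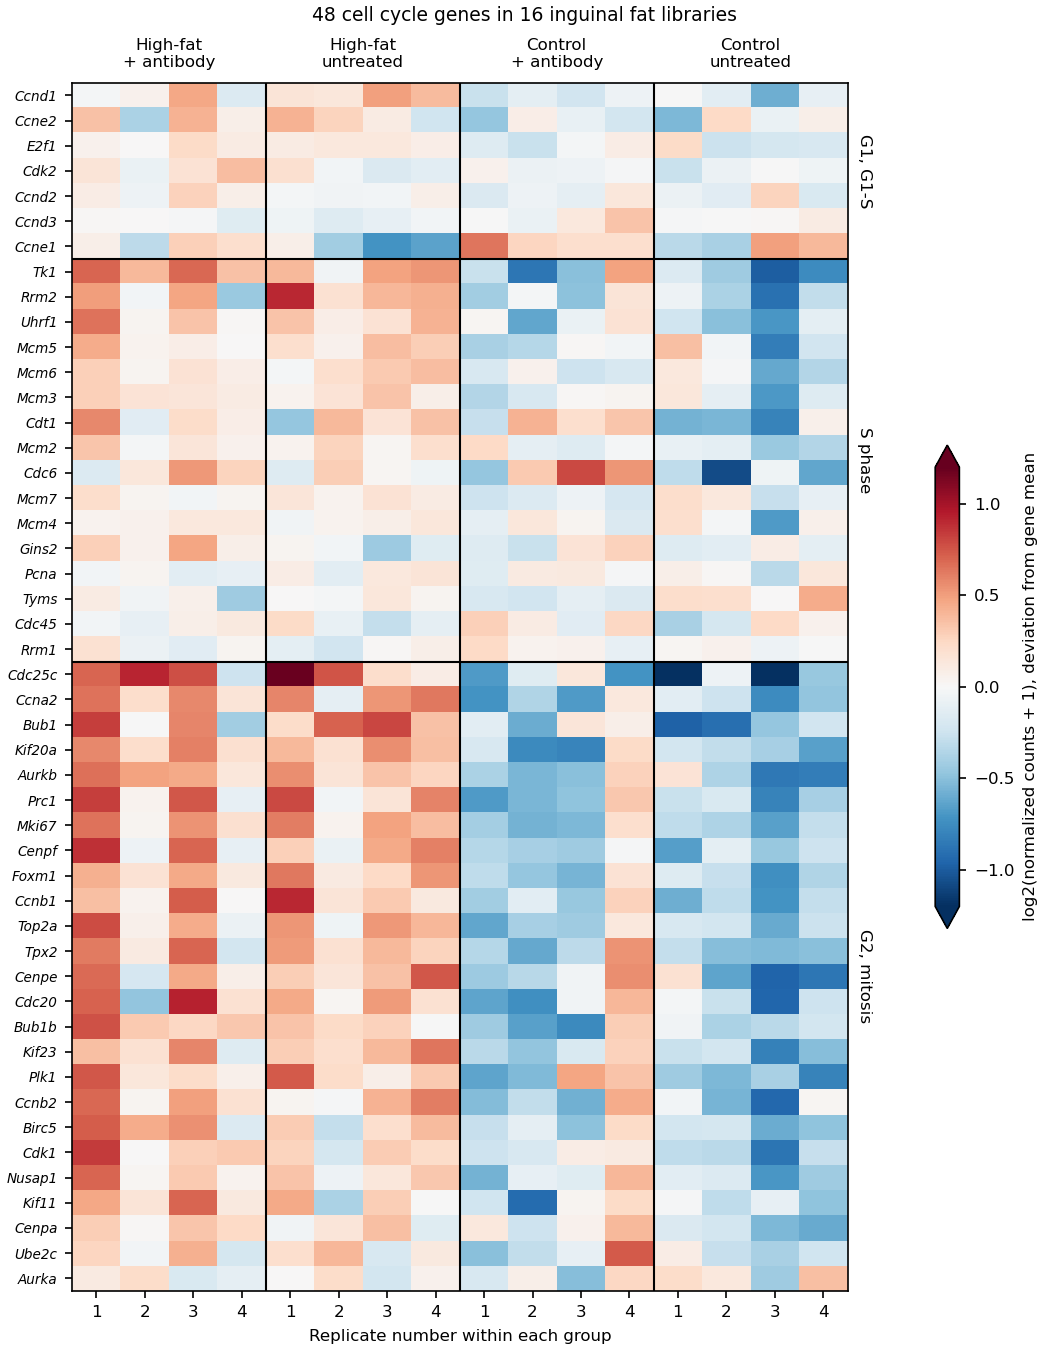
Deviation of log2(normalized counts + 1) from each gene's mean over 16 libraries (colour, saturated at 1.2 either way) for all 48 genes (rows, by role and then by the difference between diets) in each library (columns, by group and replicate). Red prevails in the high-fat columns and blue in the control-diet columns for G2 and mitosis genes, with control-diet replicate 4 with antibody red for most of them; S phase genes are paler, and G1 genes mixed.

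Among S phase genes, those that make deoxynucleotides split. Rrm2, the regulated subunit of ribonucleotide reductase (ENSMUSG00000020649, chromosome 12, 24708241 to 24714146), had 139.7, 84.3, 97.94 and 100.2 normalized counts in untreated high-fat libraries, against 71.36, 56.86, 39.6 and 60.35 in untreated control-diet libraries. With antibody it had 105.9, 72.42, 103.2 and 54.39 on the high-fat diet, against 55.55, 72.92, 52.59 and 82.61 on the control diet. The untreated groups were apart and the antibody groups overlapped widely. Rrm2 rose by 0.88 ± 0.24 without antibody (adjusted p = 0.043, limma), and with it the difference was 0.32 ± 0.24 (adjusted p = 0.505, limma). The larger subunit Rrm1 did not pass (adjusted p = 0.644, limma), with 514 ± 47.8 on the high-fat diet and 536 ± 18.6 on the control diet (SD, n = 4 each) and a log2 difference of -0.07 ± 0.09.

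Tk1, thymidine kinase of the salvage pathway (ENSMUSG00000025574, chromosome 11, 117815526 to 117826092), had 58, 42.57, 61.73 and 63.97 normalized counts in untreated high-fat libraries, against 39.05, 32.55, 21.68 and 25.71 in untreated control-diet libraries. Tk1 with antibody had 71.75, 57.74, 71.32 and 56.4 on the high-fat diet, against 36.29, 23.7, 30.71 and 61.85 on the control diet. The diets were apart without antibody, and with it the 1 overlapping library was again control-diet replicate 4. The log2 difference was 0.92 ± 0.26 without antibody (adjusted p = 0.0447, limma) and 0.82 ± 0.26 with it (adjusted p = 0.14, limma). Tk1 shares exon sequence with Afmid on the opposite strand. Tyms, thymidylate synthase of the other route to thymidine nucleotides, differed by -0.18 ± 0.12 without antibody and 0.10 ± 0.12 with it.

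None of the 6 subunits of the replicative helicase, Mcm2 to Mcm7, passed without antibody. Mcm2 had 163.7, 191.6, 161.6 and 183.7 normalized counts in untreated high-fat libraries, against 150.2, 147.2, 116.8 and 124.6 in untreated control-diet libraries. Mcm6 had 324.3, 378.4, 409.5 and 426.3 in untreated high-fat libraries, against 360.2, 326, 214.6 and 257.2 in untreated control-diet libraries. Mcm2 did not overlap between diets, while Mcm6 did, since untreated high-fat replicate 1 was below untreated control-diet replicates 1 and 2. The log2 differences without antibody were 0.38 ± 0.12 for Mcm2 (adjusted p = 0.0587, limma), 0.43 ± 0.14 for Mcm6 (adjusted p = 0.0664, limma) and 0.41 ± 0.20 for Mcm5 (adjusted p = 0.172, limma). Mcm5 had 187.5, 168.7, 210.6 and 200.3 in untreated high-fat libraries, against 209.2, 158.9, 91.23 and 138.5 in untreated control-diet libraries, where the spread was wide. Mcm3 had 276.6, 300.6, 339.9 and 281.9, against 295.6, 248.3, 165.6 and 241.4, a log2 difference of 0.36 ± 0.15 (adjusted p = 0.114, limma). Mcm4 and Mcm7, the other subunits measured, differed by 0.16 and 0.12.

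Uhrf1, which keeps DNA methylation through replication, had 101.5, 84.34, 90.11 and 106.3 normalized counts in untreated high-fat libraries, against 67.49, 55.88, 48.72 and 73.23 in untreated control-diet libraries, without overlap (0.64 ± 0.19, adjusted p = 0.0521, limma). The sliding clamp Pcna had 827.6, 711.2, 848.3 and 867.2, against 816.1, 783.6, 621.1 and 855.8, and the diets overlapped (0.09 ± 0.10, adjusted p = 0.573, limma). The licensing factors Cdt1 and Cdc6, which load the helicase, differed by 0.57 ± 0.24 and 0.54 ± 0.27 without passing (adjusted p = 0.122 and 0.184, limma). Cdc45 and Gins2, which activate the loaded helicase, differed by 0.02 and -0.07.

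Among G1 genes, Ccnd1, cyclin D1, rose. It had 1131, 1111, 1428 and 1316 normalized counts in untreated high-fat libraries, against 1010, 926.3, 675.5 and 946.8 in untreated control-diet libraries. With antibody it had 998.8, 1051, 1395 and 902.6 on the high-fat diet, against 840.4, 931.8, 863.9 and 969.5 on the control diet. The diets were apart without antibody and overlapped with it, at 0.50 ± 0.14 (adjusted p = 0.045, limma) and 0.25 ± 0.14 (adjusted p = 0.35, limma). Ccnd1 shares exon sequence with LTO1 on the opposite strand. The other D-type cyclins did not pass. Ccnd2 had 7651, 7531, 7578 and 8157 in untreated high-fat libraries, against 7392, 7045, 9321 and 6822 in untreated control-diet libraries, and overlapped. Ccnd3 had 3267, 3044, 3150 and 3311, against 3354, 3371, 3411 and 3620, with the high-fat libraries all lower (-0.11 ± 0.08, adjusted p = 0.365, limma). Ccnd2 averaged 7729 ± 289 and 7645 ± 1142 on the high-fat and control diets without antibody, and Ccnd3 averaged 3193 ± 120 and 3439 ± 123 (SD, n = 4 each). Ccne1, cyclin E1, ran the other way, with 145.9, 104.3, 84.2 and 88.84 in untreated high-fat libraries, against 111, 106.2, 196.6 and 182.1 in untreated control-diet libraries, an overlapping difference of -0.47 ± 0.22 (adjusted p = 0.17, limma). E2f1, the activator of replication genes, had 393.6, 401.2, 401.6 and 388.2, against 432.4, 306.8, 316.8 and 322.5 (0.21 ± 0.11, adjusted p = 0.187, limma). The kinase Cdk2 and cyclin E2 gene Ccne2 differed by 0.06 and 0.21.

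With antibody, 0 of 47 genes passed between the diets, against 0.00705% of genes tested. At an unadjusted p under 0.05, 14 of 24 mitosis genes and 2 of 16 S phase genes were higher and 0 were lower, against 8.43% of genes tested that were higher. The log2 difference was positive for 24 of 24 mitosis genes, against 53.9% of all genes, with a median of 0.57, against 0.17 for S phase and 0.18 for G1 genes. The lowest adjusted p was 0.09 (limma), for Bub1b, the checkpoint kinase partner, at 0.80 ± 0.20. It had 150.6, 109.6, 105 and 110.6 normalized counts on the high-fat diet with antibody, against 65.1, 55.53, 51.54 and 108.4 on the control diet with antibody, so that replicate 4 of the control diet was the only library to overlap. With single libraries left out, the mitosis median ran from 0.45 to 0.73 and 0 or 1 gene passed. Control-diet replicate 4 was picked out by these same values, so leaving it out is no separate support. Without that library the mitosis median was 0.73 and Bub1b passed, at 1.03 (adjusted p = 0.045, limma). The differences without it were 0.86 for Mki67, 0.73 for Foxm1, 0.98 for Ccna2 and 1.08 for Tk1, each with an adjusted p of 0.129 (limma), and 0.57 for Kif23 (adjusted p = 0.169, limma). Diets with antibody did not overlap for 1 mitosis gene (Ccna2) and 2 S phase genes (Mcm3 and Mcm7) with high-fat higher, against 6.38% of genes tested.

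Other genes overlapped with antibody at differing libraries. Kif20a had 126.4, 97.88, 129.1 and 96.29 normalized counts on the high-fat diet, against 73.54, 49.38, 48.28 and 99.08 on the control diet, where replicate 4 was the overlapping library. Top2a had 374.7, 227.1, 295.8 and 207.6, against 140.9, 164.4, 161.7 and 237.6, again with replicate 4 of the control diet in the high-fat range (0.64, adjusted p = 0.138, limma). Mcm3 had 326.3, 300.6, 296.7 and 287.8, against 210.2, 234.3, 271.8 and 274.9, and was without overlap (0.30, adjusted p = 0.297, limma). For Mcm6 the values were 400.9, 335.8, 371.9 and 346.9 on the high-fat diet, against 286.9, 341, 277.5 and 287.4 on the control diet, with replicate 2 of each crossing. Mcm2 had 200.3, 156.6, 176.3 and 165.5, against 188.6, 148, 143.2 and 157.1, and Mcm5 had 222.8, 167.4, 172.4 and 162.9, against 123.8, 128.4, 164.8 and 159.1, both overlapping. Uhrf1 overlapped as well, with 125.3, 81.23, 101.2 and 80.44, against 81, 51.44, 75.35 and 89.86 (0.38, adjusted p = 0.306, limma). Pcna had 761.4, 795, 710.9 and 727.3, against 702.9, 837.3, 841.9 and 771.1. E2f1 had 380.6, 368.1, 431.6 and 392.8, against 329.6, 305.2, 361.4 and 392.7. Pcna and E2f1 overlapped between diets, as did Ccnd2, at 8240, 7454, 9415 and 8160, against 6878, 7436, 7196 and 8516, and Ccnd3, at 3408, 3383, 3337 and 3058, against 3366, 3207, 3684 and 4292. Ccne1 had 146.1, 111.6, 169.6 and 159.9, against 217.4, 166.4, 160.6 and 160.2, with overlap.

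**Figure D4:**
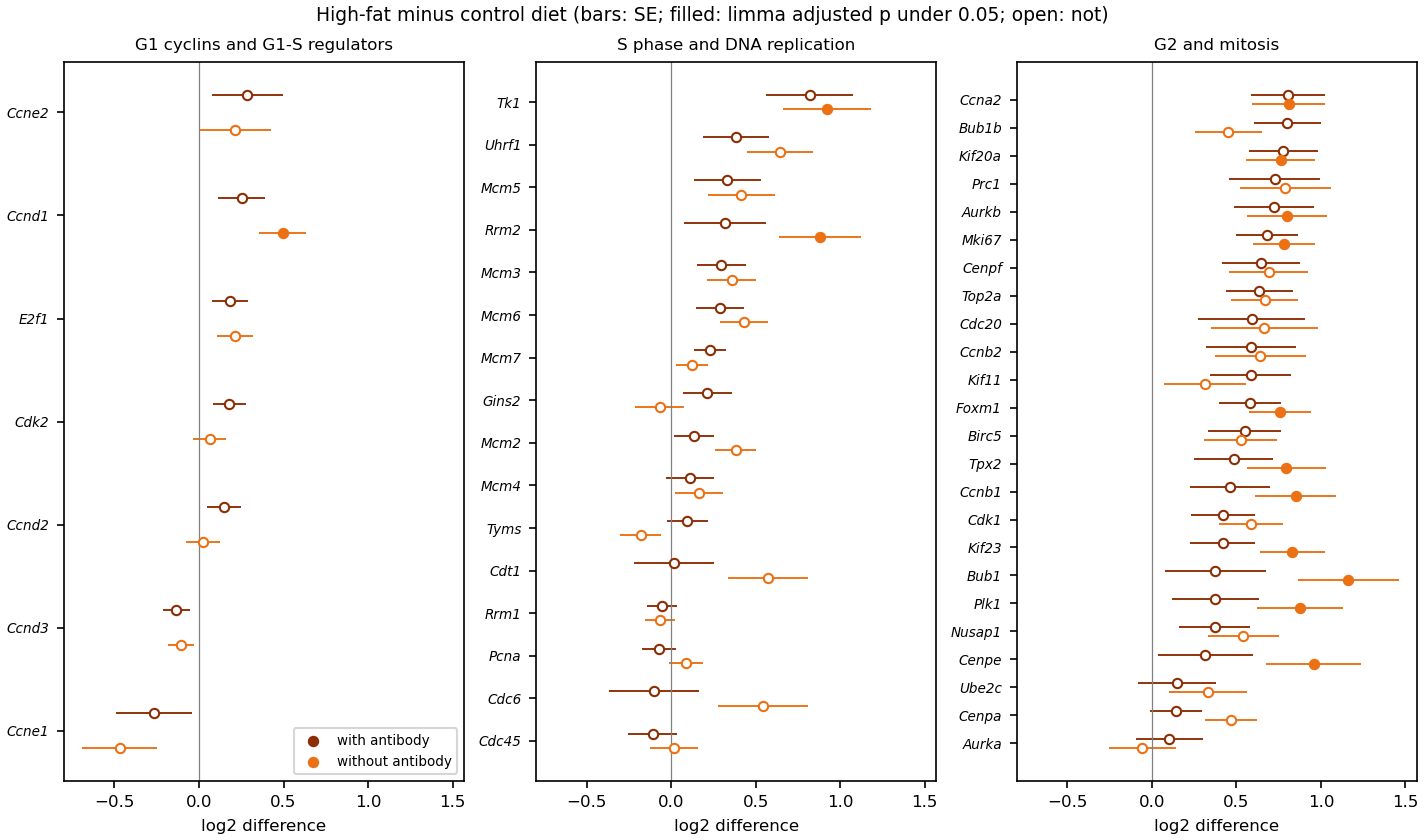
Log2 difference between high-fat and control diet (x axis) with its SE for each of the 47 tested genes, by role, with antibody (dark, upper) and without (light, lower); filled points had an adjusted p under 0.05. The 14 filled points are all without antibody and lie between 0.50 and 1.16; the mitosis points with antibody all lie above 0.

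Averaged over both antibody states, a comparison chosen after both diet effects had been seen, 26 of 47 genes rose and 0 fell, against 8.28% of genes tested that rose (19.4% in either direction). These were 19 of 24 mitosis genes, 6 of 16 S phase genes and 1 of 7 G1 genes, with medians of 0.63, 0.24 and 0.12, against 0.02 for all genes. Among the 19 were Bub1 and Ccnb1, which had passed the filter on low values only through the high-fat libraries. The lowest adjusted p was that of Mki67 (0.73 ± 0.13, adjusted p = 0.00554, limma). Ccna2 (0.81), Kif20a (0.77), Foxm1 (0.67), Top2a (0.65) and Kif23 (0.63) followed, with adjusted p-values between 0.0066 and 0.00983 (limma). The S phase genes were Tk1 (0.87, adjusted p = 0.00892), Uhrf1 (0.51, 0.0206), Mcm6 (0.36, 0.0246), Rrm2 (0.60, 0.027), Mcm3 (0.33, 0.0378) and Mcm2 (0.26, 0.045, all limma), and the G1 gene was Ccnd1 (0.37, adjusted p = 0.0202, limma). The 5 mitosis genes that did not pass were Aurka, Ube2c, Cenpa, Kif11 and Cdc20, and Cdk1 passed at 0.51 (adjusted p = 0.0201, limma). With all 8 high-fat and 8 control-diet libraries, 0 of 47 genes were without overlap, against 0.437% of genes tested that were higher. With each of the 16 libraries left out in turn, between 19 and 31 genes passed, and the mitosis median ran from 0.57 to 0.73. Without control-diet replicate 4 with antibody 29 passed, and the mitosis median was 0.73. That library was picked out by these same values, so leaving it out is no separate support.

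Markers of other cells were compared between diets as well. Without antibody, 10 of 10 macrophage genes and 10 of 10 adipose progenitor genes had a positive log2 difference, against 53.1% of all genes tested, with medians of 0.48 and 0.43. Only 1 gene of each list passed, against 2.98% of all genes tested that rose. The summed level of the 10 macrophage genes was 64040 to 102400 normalized counts in untreated high-fat libraries and 44010 to 96640 in untreated control-diet libraries, and that of the progenitor genes 144700 to 217500 and 83510 to 199400 in these groups. With antibody both lists had medians nearer 0 (0.11 and 0.13), while the mitosis median was 0.57. Control-diet replicate 4 with antibody, high in mitosis genes, was at -0.02 for macrophage and -0.06 for progenitor genes. It was at -0.11 for endothelial, -0.23 for T cell and -0.20 for 2 B cell and lymph node genes. The summed level of 7 B cell and lymph node genes in that library was 3730 normalized counts, the highest of its group. For 6 germinal centre and plasma cell genes the library was at 0.36, the highest of the 16 libraries. Untreated control-diet replicate 3, lowest in mitosis genes, was at -0.65 for macrophage genes. Of 8 endothelial genes, 5 were higher without antibody and 8 with it (medians 0.13 and 0.31). Of 10 muscle genes, 10 were lower on the high-fat diet with antibody, without overlap (the share over all genes is not given here). With the muscle level as a covariate the mitosis median was 0.25 in place of 0.57 with antibody, and 0.80 in place of 0.72 without. Since the muscle level did not overlap between diets with antibody, the covariate cannot be told apart from diet there. Of 8 tested T cell genes 3 were higher without antibody (median -0.07). The summed level of 7 B cell and lymph node genes was 2982 to 10710 normalized counts in high-fat libraries with antibody and 2483 to 3730 in control-diet libraries with antibody. It was 3636 to 7824 in untreated high-fat libraries and 1735 to 6957 in untreated control-diet libraries. The diets overlapped in both antibody states, and 2 of these genes were tested. With their level as a covariate 16 genes passed for the average over antibody states, in place of 26. The share of all genes called was 9.86%, in place of 19.4%. The part of these cells in the diet difference was not tested.

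None of the 47 genes passed for the antibody on either diet (limma). On the high-fat diet 0 passed, against 0.0775% of genes tested; at an unadjusted p under 0.05, 2 were higher (Ccne1 and Gins2), against 6.57% of genes, and 0 were lower. The mitosis median was 0.00, with 12 of 24 genes higher, against 50.1% of all genes, and -0.20 with the muscle level as a covariate. Gins2 had 152.4, 129.2, 173.5 and 131.3 normalized counts with antibody, against 127.4, 122.4, 92.04 and 112.5 without, all above (0.37 ± 0.15, adjusted p = 0.277, limma), and it was the only gene of the 47 without overlap, against 3.91% of genes that were higher. Ccne1 had 146.1, 111.6, 169.6 and 159.9 with antibody, against 145.9, 104.3, 84.2 and 88.84 without, and overlapped (0.49 ± 0.22, adjusted p = 0.358, limma).

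On the control diet 0 passed, against 0.0987% of genes tested; at an unadjusted p under 0.05, 3 were higher and 1 lower, against 6.33% and 5.31% of genes. The higher ones were Cdc6 (0.81 ± 0.27), Cdt1 (0.63 ± 0.24) and Cenpa, the histone H3 variant of centromeres (0.47 ± 0.15), with adjusted p-values of 0.259, 0.317 and 0.255 (limma). Cdc6 had 33.29, 57.54, 80.53 and 67.15 normalized counts with antibody, against 37.09, 21.44, 44.66 and 29.67 without, and the groups overlapped. The lower one, Tyms, had 120.5, 117.1, 127.7 and 122 with antibody, against 159.6, 158, 137.6 and 188 without, with no overlap (-0.39 ± 0.12, adjusted p = 0.225, limma). The mitosis median of 0.15 rested on control-diet replicate 4 with antibody, since it was -0.04 without that library, and it was 0.31 with the muscle level as a covariate. The non-overlapping genes were Cdk1 (higher) and Tyms (lower), 1 of 47 each, against 3.43% and 3.33% of genes.

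**Figure D5:**
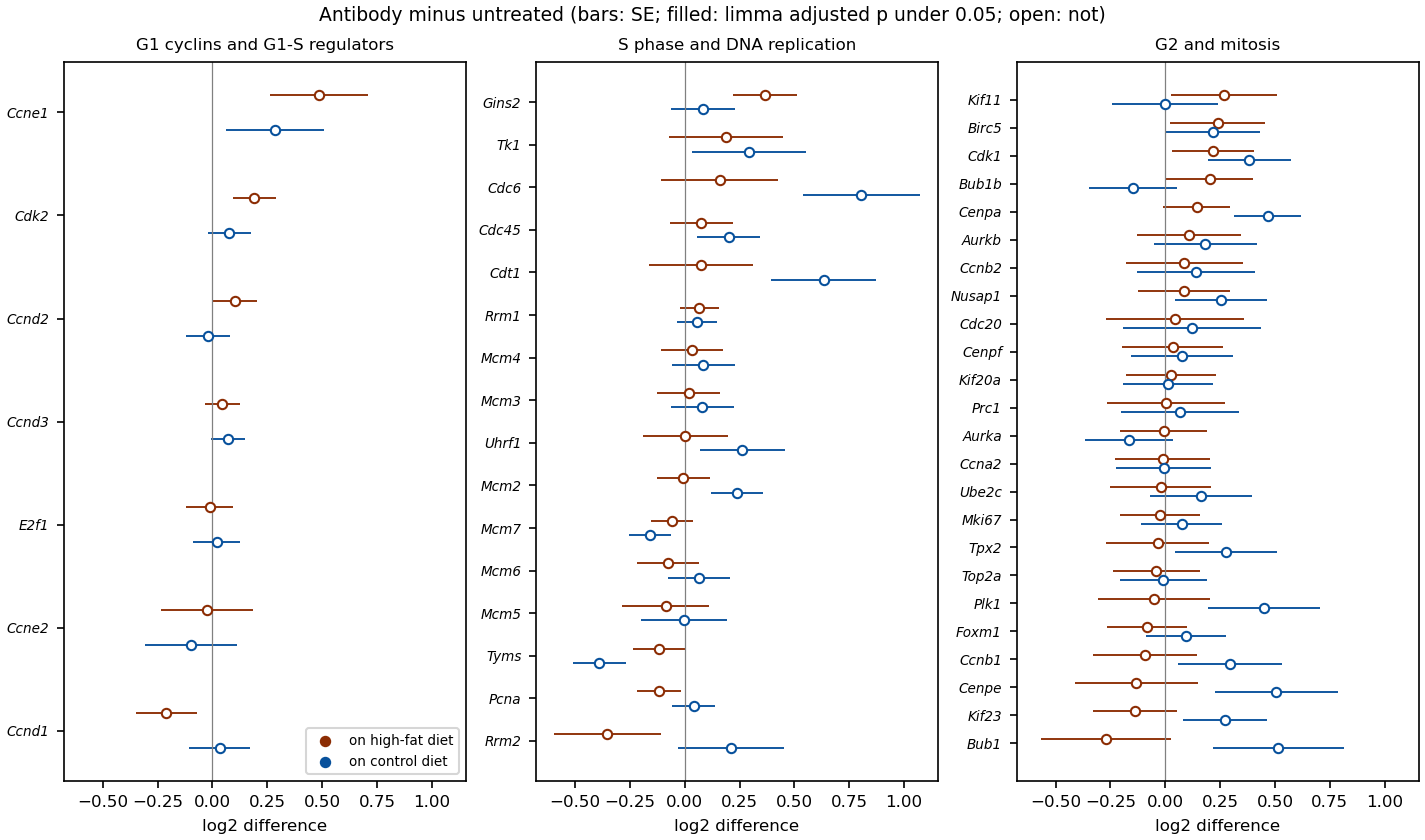
Log2 difference between antibody and untreated libraries (x axis) with its SE for each of the 47 tested genes, by role, on the high-fat diet (dark red, upper) and on the control diet (blue, lower). No point is filled, since no gene had an adjusted p under 0.05, and mitosis genes on the high-fat diet lie on both sides of 0.

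The diet difference was not shown to differ with antibody: for the interaction 0 of 47 genes passed, against 0% of genes tested, and 0 had an unadjusted p under 0.05, against 6.18% of genes. The mitosis median of the interaction was -0.09, 0.07 without control-diet replicate 4 with antibody, 0.05 with quantile normalization and -0.52 with the muscle level as a covariate. The largest in size was Bub1 at -0.79 ± 0.42 (adjusted p = 0.867, limma), which is the difference between its 2 diet effects. Intervals of this width leave room for differences between the diet effects, so similar effects were not shown either.

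The other genes of the pathway were taken from 5 lists of 123 genes, of which 120 were in the table and 116 were tested. Averaged over antibody states, 15 of 36 other mitosis genes rose and 1 fell, and 4 of 37 other replication genes rose and 4 fell, against the 8.28% that rose and 11.1% that fell among all genes. In the first list Smc4, a condensin subunit, rose by 0.26 ± 0.05 (adjusted p = 0.00554, limma) and Spc25, a kinetochore protein, by 0.57 ± 0.12 (adjusted p = 0.00884, limma). Pttg1, securin, fell by 0.36 on the log2 scale (adjusted p = 0.00627, limma), with 729 ± 70.2 and 699 ± 27.5 normalized counts on the high-fat diet with and without antibody, against 947 ± 62.7 and 891 ± 116 on the control diet with and without antibody (SD, n = 4 each). Among replication genes Prim2, a primase subunit, rose (0.46, adjusted p = 0.0128, limma), while Pold2, a subunit of polymerase delta (-0.20), and Orc5, of the origin recognition complex (-0.23), fell (adjusted p = 0.0154 and 0.0141, limma). Of 19 other kinases and phosphatases 4 rose and 0 fell, among them Nek2, a centrosome kinase (0.93, adjusted p = 0.0117, limma), Pkmyt1, an inhibitory kinase of CDK1 (0.34, adjusted p = 0.0137, limma) and Cdc25b, a phosphatase that activates CDK1 (0.35, adjusted p = 0.0185, limma). Of 18 pocket protein, E2F and MuvB complex genes 1 rose, the repressor E2f7 (0.52, adjusted p = 0.0263, limma), and 0 fell. Without antibody, 6 of the 116 rose (Cdc25b, Pkmyt1, Incenp, Spc25, Ckap2 and Sgo1) and 4 fell (Cdkn2c, Orc2, Pold2 and Pttg1), against 2.98% and 5.17% of all genes tested. Of these, Sgo1, the protector of sister chromatid cohesion, rose by 1.37, Ckap2, a spindle protein, by 1.12 and Incenp, of the passenger complex, by 0.53, with adjusted p-values of 0.0416, 0.0362 and 0.0323 (limma). Orc2, of the origin recognition complex, fell by 0.29 on the log2 scale (adjusted p = 0.0407, limma). All these calls without antibody were lost when only the compared groups were fitted, where 0% of all genes tested were called. Whether genes outside the 48 passed the filter on low values only through the high-fat libraries was not examined.

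Of the 116 other genes 1, Cdkn1a, passed for the antibody on the high-fat diet (limma), against 0.0775% of genes tested. On the control diet 0 passed, against 0.0987%. The calls of these other genes, Cdkn1a included, were not followed gene by gene under the alternative settings of the fit. Cdkn1a, encoding p21, a target of p53, had 512.4, 322, 716.9 and 346.5 normalized counts on the high-fat diet with antibody, against 959.3, 1238, 1507 and 1658 without. On the control diet it had 429.7, 344.2, 368.1 and 427.9 with antibody, against 1277, 735.5, 1100 and 688.5 without. On the control diet every antibody library was below every untreated one, as for 3.33% of all genes tested. The same held for Cdkn1a on the high-fat diet, where the share over all genes is not given here. The log2 difference was -1.54 ± 0.25 on the high-fat diet (adjusted p = 0.0352, limma) and -1.23 ± 0.25 on the control diet (adjusted p = 0.0771, limma). Over the same libraries the mitosis medians were 0.00 and 0.15. Between diets, of 6 tested inhibitors 1 fell, Cdkn2c, encoding p18, with 2784 ± 323 on the untreated high-fat diet and 3820 ± 606 on the untreated control diet (SD, n = 4 each; -0.45 ± 0.13, adjusted p = 0.0438, limma).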

How the data were processed

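Libraries of mRNA from inguinal fat were sequenced for 4 groups of 4. The deposited values are a signal of normalized counts per gene, made by the authors; the submitters' processing notes name fastp 0.20.1, STAR 2.7.0e, featureCounts, Subread 1.6.2, limma 3.42.2 and the mouse build mm10 (GRCm38), with no order. The normalization method and strand setting are named in no source used here. Exons of 15 of the genes described here overlap a tested gene on the opposite strand. Whether reads of the overlapping genes entered their counts was not tested. Whole reads could not be recovered from the values, so depth is unknown and no count model was used.

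Values were taken as log2(value + 1), which understates changes of low genes, for 14189 of 16091 genes above 24.49 in at least 4 libraries. One limma fit (limma 3.58.1, R 4.3.3, mean-variance trend) of 4 group means over 16 libraries gave each contrast, with two-sided p-values adjusted by Benjamini-Hochberg over 14189 genes. The contrast averaged over antibody states was added after the data had been seen. On simulated data with independent noise per gene, the fit was checked only for returning the size of added differences. That check does not bear on how stable the calls are in these libraries. Groups without overlap are those where each library of one lies beyond each library of the other. Tables and plots used Python 3.11.15, pandas 2.3.3 and matplotlib 3.10.9. Gene positions come from GENCODE (GRCm38) and promoters from RefSeq (GRCm38.p6).

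The genes and lists were chosen with earlier results of these data known. The labels do not call the replicates separate animals, and the p-values therefore cover only the variation among these libraries, possibly technical. Given by library were up to 6 genes per role and contrast with the lowest p among those that passed, 14 genes in every case (Mki67, Top2a, Ccna2, Cdk1, Foxm1, Mcm2, Mcm5, Pcna, Rrm2, Ccnd1, Ccnd2, Ccnd3, Ccne1 and E2f1), and Cdkn1a. Of other pathway lists, up to 3 genes per list and contrast were given by log2 difference, some with group means, and not by library. Mcm7, Bub1b, Gins2, Cdc6, Tyms and others were named after their values were seen. Alternatives were a larger pseudocount, no filter, other normalizations, variance settings, marker scores as covariates, replicate number as a block, the compared groups alone, and each library left out. A result on 1 marker gene is not reported here.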

Additional observations from a re-analysis of the deposited data

Results flagged for a closer look

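In 12 of 208 gene and group combinations, 1 library stood apart, with a gap to its nearest neighbour, as a share of the range over the 4 libraries, above Dixon's critical value. Chance gives about 1 in 20 such groups. Control-diet replicate 4 with antibody was high for Mki67 (295.5 normalized counts), Aurkb (62.93), Cenpf (52.66) and Prc1 (108.4), all genes of mitosis. In the same group replicate 1 was high for Ccne1 (217.4) and replicate 2 for Mcm6 (341.0). Among untreated control-diet libraries replicate 1 was high for E2f1 (432.4) and Tpx2 (64.66), and replicate 3 was high for Gins2 (132.8) and low for Cdk1 (57.06). High-fat replicate 1 with antibody was high for Mcm5 (222.8) and Bub1b (150.6).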

How the results depend on the processing

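Without antibody, 14 genes were called between diets, against 8.15% of all genes tested. The count became 5 with quantile normalization (8.35% of all genes) and 9 with no variance trend (5.12%). It was 1 with the muscle level as covariate, where 0.458% of all genes were called. The mitosis median in that setting was 0.80, in place of 0.72. The count was 0 when only the groups compared were fitted (0% of all genes). It was also 0 (0%) when high-fat replicate 2 and control-diet replicate 3, both untreated, were left out together. With single libraries left out the count ranged from 0 to 24, and the share of all genes called from 0% to 29.0%. With the replicate block 0 genes were called. Same-numbered libraries of different groups correlated between -0.539 and 0.487, and other-numbered ones between -0.623 and 0.539. These correlations cannot settle whether the replicate numbers pair the samples. With antibody the count of 0 became 1 without those 2 libraries, and ranged from 0 to 1 with single libraries left out. For the average over antibody states, 26 genes were called, all higher, against 19.4% of all genes. These became 16 with the muscle level as covariate (15 higher and 1 lower), where 20.2% of all genes were called. The mitosis median there was 0.55, in place of 0.63. The count was 16 with the B cell level as covariate (all higher, 9.86% of all genes) and 18 with the replicate block (10.6%). With single libraries left out the count was 19 to 31, and the share of all genes 11.2% to 33.3%. The antibody and interaction counts were 0 in every setting run. No named gene called in a diet comparison changed direction, but the mitosis medians of the antibody on the control diet and of the interaction changed sign without control-diet replicate 4 with antibody, to -0.04 and 0.07, and that of the interaction also with quantile normalization (0.05). The cause of these changes was not tested. Depth is unknown, so what it limits could not be given.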
